A study of Mus musculus with 3 samples.

Results

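The endoplasmic reticulum (ER) secretion and unfolded protein genes are 38 of the 17633 genes in the tables. They were chosen by symbol for their known function, with earlier results of these data known. They comprise 9 chaperones and co-chaperones, 4 protein disulfide isomerases, 2 lectin chaperones, 11 translocon and signal peptidase genes, 3 oligosaccharyltransferase subunits, 3 genes of ER-associated degradation and 6 regulators of the unfolded protein response. All 38 were found in the tables and had reads in all 3 libraries. RNA was sequenced from the endoderm, mesoderm and epiblast of embryonic day 7.5 (E7.5) mouse embryos of the ICR strain, an outbred stock. The labels name no mutant allele, transgene or treatment. The embryonic region was freed of Reichert's membrane, incubated with trypsin and pancreatin, and separated into layers by hand. Each layer gave 1 library from RNA of many pooled embryos, so that no spread between embryos or libraries can be measured.

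Proteins that are secreted or sit in membranes are threaded into the ER through the Sec61 channel, lose their signal peptide, receive N-linked sugars and fold with the help of chaperones and disulfide isomerases. Proteins that fail to fold are returned to the cytosol and degraded. When unfolded proteins accumulate, the sensors Ire1 (gene Ern1), Perk (gene Eif2ak3) and Atf6 raise the output of many of these genes through the transcription factors Xbp1, Atf4 and cleaved Atf6. The visceral endoderm of the mouse embryo is a secretory epithelium that makes apolipoproteins, transferrin and other serum proteins.

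Part of this regulation is written in promoters as the ER stress response element (ERSE), CCAAT, any 9 bases, then CCACG, which Atf6 binds together with the factor NF-Y. A shorter form, ERSE-II, is ATTGG, any 1 base, then CCACG. Both strands were searched in the RefSeq promoters of the GRCm38.p6 assembly, each 250 bases before to 50 bases after a gene's start, and 32 of the 38 members had a promoter there. ERSE was found in 7 of the 32 members (21.9%) and in 39 of all 32851 promoters (0.119%). ERSE-II was found in 2 of the 32 members (6.25%) and in 12 of all promoters (0.0365%). The full promoter of Hspa5, which encodes the chaperone BiP, is shown because it holds ERSE and also UPRE, the letters TGACGTG. It lies at chr2:34771840-34772139 on the plus strand, with UPRE first and ERSE second in capitals.
Hspa5: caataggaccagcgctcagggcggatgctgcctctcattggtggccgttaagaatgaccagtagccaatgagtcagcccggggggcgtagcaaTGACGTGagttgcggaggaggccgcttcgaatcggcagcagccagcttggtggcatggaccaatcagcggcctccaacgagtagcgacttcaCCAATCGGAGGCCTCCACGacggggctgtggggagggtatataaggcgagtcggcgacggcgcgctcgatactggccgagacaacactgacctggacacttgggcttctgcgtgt

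The element and its flanks in the other 8 members with ERSE or ERSE-II are shown so that they can be compared with each other and with the levels that follow. Capitals mark the element, and each sequence is read along the strand of its gene. Calr, Creld2 and the second Hsp90b1 site carry ERSE on the opposite strand, so that its letters appear there reversed and complemented, starting CGTGG and ending ATTGG.
Calr (ERSE, chr8:84847055-84847113, minus strand): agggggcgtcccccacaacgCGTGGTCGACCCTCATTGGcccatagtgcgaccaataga
Hsp90b1 (ERSE, chr10:86705618-86705676, minus strand): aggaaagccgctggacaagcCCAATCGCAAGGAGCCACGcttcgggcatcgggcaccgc
Hsp90b1 (ERSE, chr10:86705513-86705571, minus strand): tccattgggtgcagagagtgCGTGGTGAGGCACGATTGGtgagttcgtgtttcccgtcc
Canx (ERSE, chr11:50325780-50325838, minus strand): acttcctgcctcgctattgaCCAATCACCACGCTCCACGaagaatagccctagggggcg
Pdia6 (ERSE, chr12:17266471-17266529, plus strand): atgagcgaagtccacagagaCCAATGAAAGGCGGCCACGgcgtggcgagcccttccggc
Dnajc3 (ERSE, chr14:118937807-118937865, plus strand): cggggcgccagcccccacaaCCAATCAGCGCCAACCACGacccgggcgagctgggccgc
Creld2 (ERSE, chr15:88819500-88819558, plus strand): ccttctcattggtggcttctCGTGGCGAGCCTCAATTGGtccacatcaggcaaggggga
Herpud1 (ERSE-II, chr8:94386357-94386407, plus strand): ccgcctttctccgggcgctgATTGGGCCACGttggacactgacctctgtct
Dnajb11 (ERSE-II, chr16:22857832-22857882, plus strand): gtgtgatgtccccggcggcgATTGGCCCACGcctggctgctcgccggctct
The elements began between 212 and 52 bases before the RefSeq start, except that of Dnajb11, which began at base 8 of the transcribed side. UPRE was found in 1 member, Hspa5, and in 2.01% of all promoters. The amino acid response element (AARE), which Atf4 can bind and which was searched as TTGCATCA, was found in 1 member, Herpud1, and in 0.895% of all promoters. A match is a run of letters and was not tested as a binding site.

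The libraries held 41.7, 40.8 and 42.7 megareads (M reads) on genes for the endoderm, mesoderm and epiblast. Sox17 and Foxa2 were at 39.5 and 44.0 RPKM (reads per kilobase of gene, scaled to the depth of the library) in the endoderm and between 0.322 and 2.58 RPKM elsewhere. Kdr and Foxf1 were at 40.8 and 33.2 RPKM in the mesoderm and below 1.8 RPKM elsewhere, and Sox2 was at 42.7 RPKM in the epiblast and below 1.4 RPKM elsewhere. Some markers were also high outside their layer or went against it. In the endoderm, mesoderm and epiblast, Pou5f1 was at 36.4, 119.6 and 517 RPKM and Otx2 at 27.4, 21.2 and 58.3 RPKM. Cer1 was at 138, 47.4 and 0.66 RPKM and Sox7 at 3.29, 3.57 and 0.15 RPKM. Hand1 was at 0.999, 222 and 33.2 RPKM and Mesp1 at 1.36, 50.5 and 11.6 RPKM. Gata6 was at 15.01, 31.2 and 0.77 RPKM in the endoderm, mesoderm and epiblast, Tbx6 was at 38.7 RPKM in the mesoderm and 34.1 RPKM in the epiblast, and Fgf5 was at 6.64 RPKM in the endoderm and 6.32 RPKM in the epiblast.

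The 38 genes were as a group most abundant in the endoderm and least abundant in the epiblast. They held 1.446% of the reads on genes in the endoderm library (95% exact binomial interval 1.442 to 1.450), 1.037% in the mesoderm library (1.034 to 1.040) and 0.862% in the epiblast library (0.859 to 0.865). The intervals given here and below cover counting error only. RPKM was highest in the endoderm for 34 of the 38 genes, where 37.1% of the 9135 genes above RPKM 5 in any library were highest. It was highest in the mesoderm for 3 genes (Dnajb9, Sdf2l1 and Atf4; 30.3% of all genes) and in the epiblast for 1 gene (Ddit3; 32.6% of all genes). The full order endoderm, mesoderm, epiblast held for 33 of the 38 genes (86.8%) and for 2002 of the 9135 genes (21.9%). In RNA from a whole layer, a smaller share of secretory cells and less RNA per cell cannot be told apart.

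**Figure D1:**
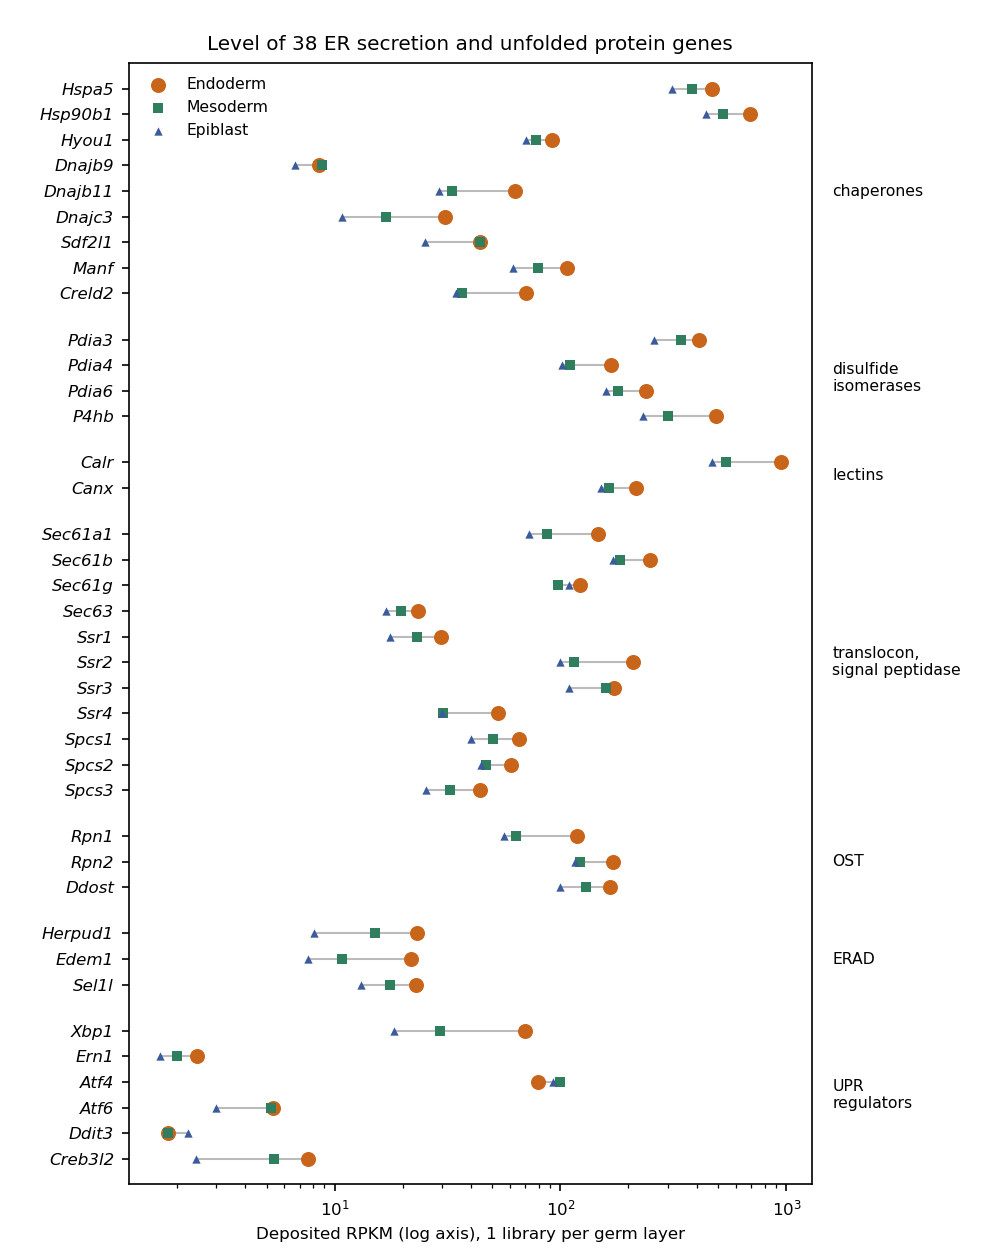
Deposited RPKM (log axis) of the 38 genes in the endoderm (circles), mesoderm (squares) and epiblast (triangles), 1 library each, by step of the pathway. The endoderm point lies farthest right for 34 of the 38 genes, and Atf4 and Ddit3 are among the 4 exceptions.

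Against the epiblast a shift above 1.5-fold was shared by most of the genes, 27 of the 38, and 12 were above 2-fold in the endoderm. Against the mesoderm 13 and 2 of the 38 were. With a Fold Change above 1.5 in the criteria below, 24.2% and 21.8% of all genes were called higher in the endoderm in these pairs. A gene met the study's criteria for differential expression when its RPKM was above 5 in at least 1 of the 2 libraries, its Fold Change was above 2 and its FDR was below 0.001. Of the 38 genes, 36 passed the RPKM criterion in each pair of libraries, and Ern1 and Ddit3 did not. RPKM was higher in the endoderm than in the mesoderm for 34 of the 38 genes (44.0% of all genes above RPKM 5), with a median log2 ratio of 0.41 against -0.10 over all genes. Only 2 of the 38 (5.26%), Edem1 and Xbp1, met the criteria, below the 14.4% of all genes that were called higher in the endoderm. Against the epiblast, RPKM was higher in the endoderm for 36 of the 38 genes (46.0% of all genes), with a median log2 ratio of 0.74 against -0.08 over all genes. Here 12 of the 38 genes (31.6%) met the criteria, where 15.7% of all genes did. These were Dnajb11, Dnajc3, Creld2, P4hb, Calr, Sec61a1, Ssr2, Rpn1, Herpud1, Edem1, Xbp1 and Creb3l2. RPKM was higher in the mesoderm than in the epiblast for 36 of the 38 genes (52.7% of all genes), with a median log2 ratio of 0.26 against 0.02 over all genes, and 1 gene, Creb3l2, met the criteria (2.63%, where 5.30% of all genes did). No member was called lower in the endoderm than in the mesoderm or the epiblast, where 8.56% and 8.94% of all genes were, or lower in the mesoderm than in the epiblast, where 5.02% were. The endoderm library enters both of the first comparisons, so that they are not independent.

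Reads of 3 called genes, Sec61a1, Ssr2 and Rpn1, may include some of a non-coding or predicted gene that overlaps their exons on the other strand. The threshold divided genes with similar folds. Against the epiblast, 7 of the 12 called genes had folds between 2 and 2.2, and against the mesoderm 5 genes lay between 1.8-fold and 2-fold. With the libraries scaled to the same upper quartile, 5 of the 12 calls against the epiblast and 1 of the 2 against the mesoderm were made. Of all genes, 13.8% and 13.4% were called higher in the endoderm there, so that the members' share was not above that of all genes. When a biological coefficient of variation of 0.2 was assumed in the exact test of edgeR, Xbp1 and Creb3l2 against the epiblast were the only calls. The members' share was then below that of all genes, 9.69% against the epiblast and 9.27% against the mesoderm.

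**Figure D2:**
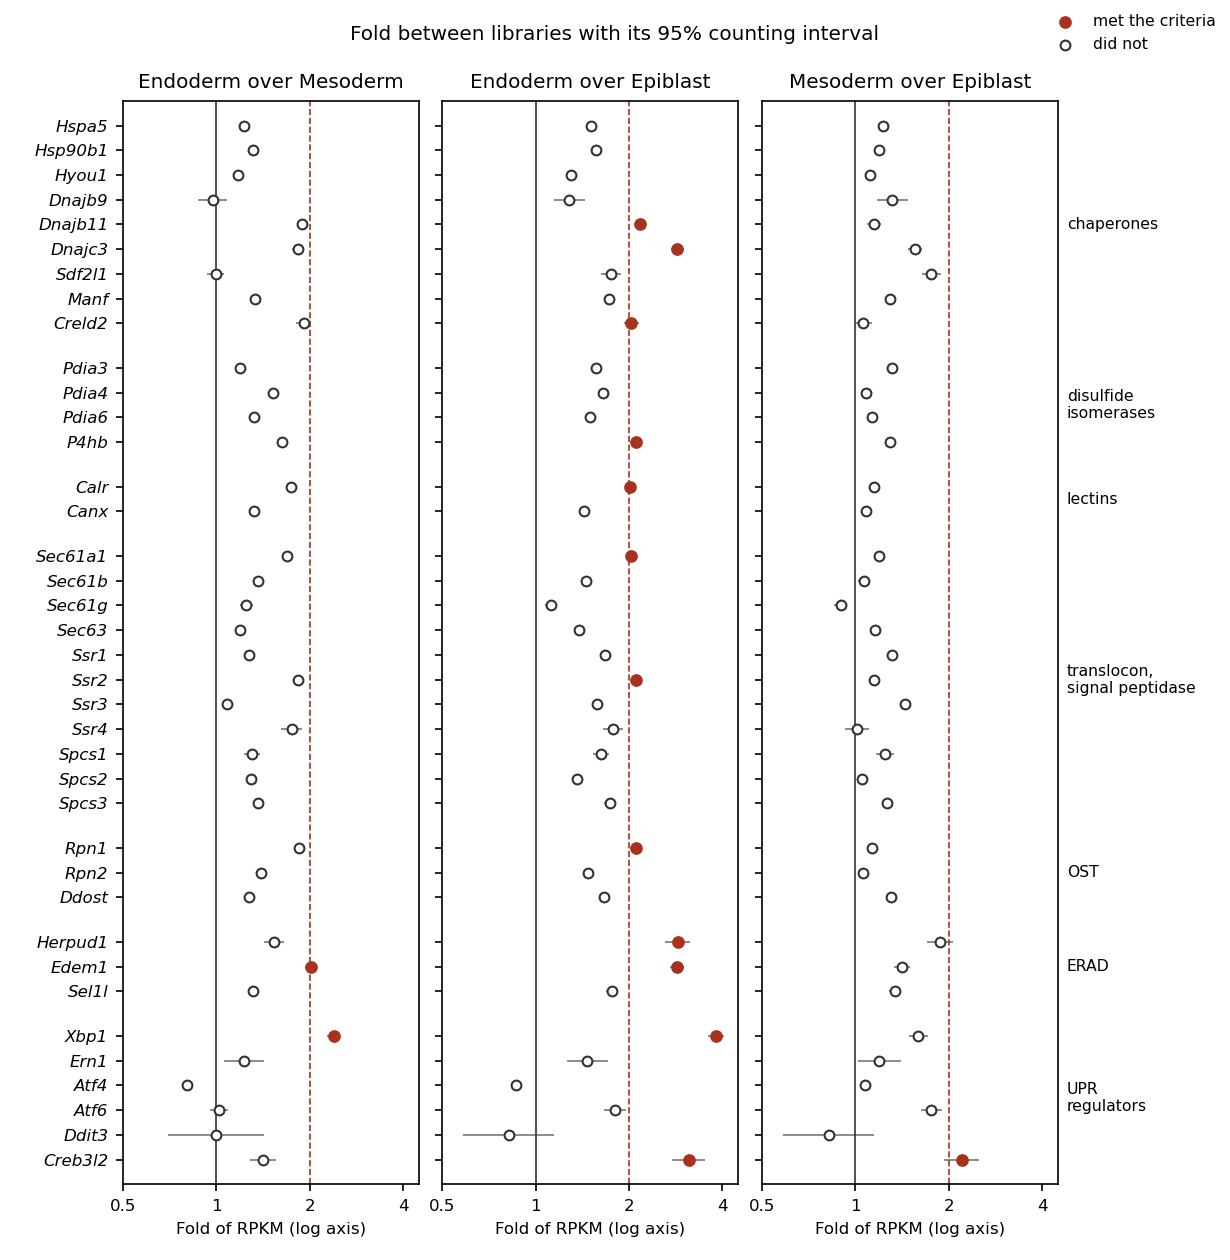
Fold of RPKM (log axis) between each pair of libraries for the 38 genes, with the 95% interval of counting error as bars, a solid line at 1 and a dashed line at 2. Filled points met the criteria (2, 12 and 1 genes), and several lie within 2 to 2.2-fold of the epiblast.

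Among the regulators, Xbp1 differed most. Xbp1, the transcription factor whose mRNA is spliced by Ire1, was at 69.9 RPKM in the endoderm (5294 reads), 29.3 RPKM in the mesoderm (2173 reads) and 18.3 RPKM in the epiblast (1421 reads). The endoderm level was 2.39-fold that of the mesoderm (95% counting interval 2.27 to 2.51) and 3.82-fold that of the epiblast (3.60 to 4.05), and both met the criteria. These were the largest folds of the 38 genes in the endoderm against either layer. The gene lies at chr11:5520659-5525893 on the plus strand of GRCm38, and counts per gene do not separate its spliced and unspliced forms. Neither ERSE form, UPRE nor AARE was found in its promoter window.

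Creb3l2, an ER-anchored transcription factor related to Atf6, was at 7.63, 5.40 and 2.45 RPKM in the endoderm, mesoderm and epiblast. It was low in the epiblast rather than high in the endoderm alone. Its level was 3.11-fold (2.76 to 3.53) higher in the endoderm and 2.21-fold (1.94 to 2.51) higher in the mesoderm than in the epiblast, and both met the criteria. Against the mesoderm the endoderm fold was 1.41 (1.28 to 1.55). Atf6, the sensor that is cleaved in the Golgi, was also lowest in the epiblast, at 5.36, 5.25 and 2.98 RPKM. It was 1.797-fold between endoderm and epiblast and did not meet the criteria. Its endoderm and mesoderm levels could not be ordered, at 1.02-fold (0.95 to 1.09), and the sign turned when the libraries were scaled to the same upper quartile.

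Atf4, Ddit3 and Ern1 met the criteria in no pair. Atf4, whose protein is made when Perk slows translation, was at 79.9, 99.5 and 92.4 RPKM and was lowest in the endoderm, at 0.80-fold (0.78 to 0.83) the mesoderm and 0.86-fold (0.84 to 0.90) the epiblast. Atf4 is controlled largely at translation, which RNA levels do not measure. Ddit3 (CHOP), a target of Atf4 in prolonged stress, was at 1.83, 1.84 and 2.24 RPKM, from 67, 66 and 84 reads. No difference in Ddit3 was detectable at this depth, with endoderm folds of 0.996 (0.70 to 1.42) and 0.82 (0.58 to 1.14), and its exons overlap those of Mars on the other strand. Ern1, which encodes Ire1, was at 2.47, 2.01 and 1.68 RPKM, below the RPKM criterion in every library.

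Among the chaperones, the most abundant had smaller folds than several co-chaperones. Hspa5 (BiP), the ER Hsp70 and the classical reporter of the unfolded protein response, was at 469, 382 and 311 RPKM in the endoderm, mesoderm and epiblast. The endoderm fold was 1.23 (1.21 to 1.24) against the mesoderm and 1.51 (1.49 to 1.53) against the epiblast, and neither met the criteria. Hsp90b1 (GRP94), the ER Hsp90, was at 689, 524 and 440 RPKM, with folds of 1.32 and 1.57. Hyou1, a large Hsp70 relative that exchanges nucleotide on BiP, was at 91.4, 78.1 and 70.2 RPKM. The endoderm was highest for all 3, by less than 1.6-fold.

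Dnajc3, a co-chaperone of BiP that also restrains Perk, was at 31.0, 16.9 and 10.8 RPKM. It was 2.86-fold (2.73 to 2.998) higher in the endoderm than in the epiblast, and 1.83-fold higher than in the mesoderm. Dnajb11, which delivers unfolded proteins to BiP, was at 62.9, 33.2 and 28.9 RPKM, or 2.18-fold (2.08 to 2.27) the epiblast and 1.89-fold (1.82 to 1.97) the mesoderm. Creld2, a disulfide isomerase-like stress protein, was at 70.0, 36.6 and 34.5 RPKM, or 2.03-fold (1.92 to 2.14) the epiblast and 1.91-fold (1.81 to 2.02) the mesoderm. For Dnajb11 and Creld2 the mesoderm and epiblast levels lay close together and the endoderm level stood apart. These 3 genes met the criteria against the epiblast and not against the mesoderm.

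The remaining chaperone genes did not meet the criteria in any pair. Manf, a secreted ER stress protein, was at 107, 79.9 and 61.9 RPKM, and its exons overlap those of Dcaf1 and Rbm15b. Sdf2l1, which works with Dnajb11, was at 43.9, 44.1 and 25.1 RPKM. Dnajb9, which restrains Ire1, was at 8.55, 8.78 and 6.67 RPKM. For these last genes the endoderm and mesoderm could not be ordered, with folds of 0.99 (0.93 to 1.06) for Sdf2l1 and 0.97 (0.87 to 1.09) for Dnajb9, and both turned to slightly above 1 when the libraries were scaled by the median of ratios.

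All 4 disulfide isomerases were highest in the endoderm and lowest in the epiblast. P4hb, which is also a subunit of prolyl 4-hydroxylase and of the microsomal triglyceride transfer protein, was at 489, 300 and 232 RPKM. It was 2.11-fold (2.08 to 2.14) higher in the endoderm than in the epiblast and met the criteria there, and the fold against the mesoderm was 1.63 (1.61 to 1.66). Pdia3, the partner of the lectin chaperones, was at 408, 342 and 261 RPKM, Pdia4 at 168, 110 and 102 RPKM, and Pdia6 at 239, 180 and 159 RPKM. Their folds were between 1.501 and 1.65 against the epiblast and between 1.19 and 1.52 against the mesoderm.

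Of the 2 lectin chaperones that hold newly glycosylated proteins, the soluble one had the larger fold. Calr (calreticulin) had the highest RPKM of the 38 genes in every library, at 944, 540 and 469. It was 2.01-fold (1.99 to 2.04) the epiblast, just past the criterion, and 1.75-fold (1.73 to 1.77) the mesoderm. Canx (calnexin), its membrane-bound relative, was at 216, 163 and 150 RPKM, with folds of 1.44 and 1.32. Both promoters carry the ERSE shown above.

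The 11 translocon and signal peptidase genes were all highest in the endoderm, and 2 met the criteria against the epiblast. Sec61a1, the pore of the channel, was at 147, 86.8 and 72.8 RPKM, or 2.02-fold (1.97 to 2.07) the epiblast. Ssr2, a subunit of the translocon-associated protein complex, was at 210, 115 and 99.6 RPKM, or 2.10-fold (2.03 to 2.18) the epiblast. Subunits of one complex did not share a ratio. The channel subunits Sec61b (250, 183 and 171 RPKM) and Sec61g (122, 97.6 and 109 RPKM) were 1.46-fold and 1.12-fold the epiblast, and Sec61g was the only gene of the 11 with a lower level in the mesoderm than in the epiblast, at 0.90-fold (0.86 to 0.94). In the translocon-associated complex, Ssr1 (29.5, 23.2 and 17.6 RPKM) and Ssr4 (52.9, 30.2 and 29.8 RPKM) were 1.67-fold and 1.77-fold the epiblast. Ssr3, its other subunit, was at 172, 158 and 109 RPKM, so that the mesoderm lay near the endoderm, at an endoderm fold of 1.09 (1.06 to 1.11).

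Sec63, which couples BiP to the channel, was at 23.3, 19.6 and 16.9 RPKM. The signal peptidase subunits Spcs1 (65.3, 50.2 and 40.2 RPKM), Spcs2 (60.6, 46.9 and 44.7 RPKM) and Spcs3 (44.2, 32.4 and 25.5 RPKM) had endoderm folds of 1.62, 1.36 and 1.73 against the epiblast. The same order of the layers held in all 4 genes, and none met the criteria.

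The oligosaccharyltransferase, which transfers the N-linked sugar, had 1 subunit past the criteria. Rpn1 was at 118, 63.8 and 56.2 RPKM, or 2.10-fold (2.05 to 2.16) the epiblast and 1.85-fold (1.81 to 1.90) the mesoderm. Rpn2 was at 171, 123 and 116 RPKM and Ddost at 165, 130 and 99.8 RPKM, with folds of 1.48 and 1.66 against the epiblast.

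The ER-associated degradation genes had the largest median fold of any step, 2.86 against the epiblast over 3 genes. Edem1, a lectin that extracts misfolded glycoproteins for degradation, was at 21.7, 10.7 and 7.59 RPKM. It met the criteria against the mesoderm, at 2.02-fold (1.93 to 2.12), and against the epiblast, at 2.86-fold (2.71 to 3.02). Herpud1, which organizes the degradation complex at the membrane, was at 23.2, 15.2 and 8.10 RPKM. It met them against the epiblast, at 2.87-fold (2.62 to 3.14), and not against the mesoderm, at 1.53-fold (1.42 to 1.65). Sel1l, the partner of the ubiquitin ligase Hrd1, was at 23.0, 17.6 and 13.1 RPKM, 1.76-fold between endoderm and epiblast.

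Set against the promoters shown above, the 9 genes with ERSE or ERSE-II had median folds of 1.53 for endoderm over mesoderm, 2.01 for endoderm over epiblast and 1.15 for mesoderm over epiblast. The 23 genes whose promoter window held neither had median folds of 1.29, 1.62 and 1.25. Against the epiblast, 5 of the 9 and 5 of the 23 met the criteria, where 15.7% of all genes did. Against the mesoderm 0 of the 9 and 2 of the 23 did (14.4% of all genes), and between mesoderm and epiblast 0 and 1 (5.30%). Members without a promoter, among them the called genes Sec61a1 and Ssr2, are in neither group. The ranges against the epiblast overlapped, from 1.44 to 2.87 in the 9 and from 0.82 to 3.82 in the 23. The difference was not tested.

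The remaining genes of the pathway were taken from lists written by function. In protein folding, 30 further enzymes had a median log2 ratio of 0.46 against the mesoderm and 0.82 against the epiblast. Against the mesoderm 3 were called higher and 2 lower in the endoderm, where 14.4% and 8.56% of all genes were, and against the epiblast 9 higher and 1 lower, where 15.7% and 8.94% of all genes were. Pdia5, a disulfide isomerase, was at 43.9, 8.65 and 5.25 RPKM, 5.08-fold and 8.36-fold higher in the endoderm. Erp29 was 2.05-fold higher than in the mesoderm, and Txndc11 was 2.62-fold higher than in the epiblast. RPKM was highest in the endoderm for 21 of the 30, in the mesoderm for 6 and in the epiblast for 3. Fkbp10, a collagen prolyl isomerase, was at 4.15, 18.4 and 18.7 RPKM and was called lower in the endoderm in both pairs. The prolyl isomerase Ppic was at 27.3, 67.8 and 12.2 RPKM and was called higher in the mesoderm than in either other layer. Serpinh1 (HSP47), the collagen chaperone, was at 248, 266 and 99.6 RPKM, and was called higher than in the epiblast in the mesoderm (2.68-fold) and in the endoderm (2.49-fold).

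Of 23 genes that carry proteins from the ER to the Golgi, RPKM was higher in the endoderm than in the mesoderm for 21 and than in the epiblast for 22, and paralogs within a family differed in size. The median log2 ratio was 0.61 against the mesoderm and 0.83 against the epiblast, with 3 and 8 called higher in the endoderm (14.4% and 15.7% of all genes) and 0 lower. Kdelr3, a receptor that returns escaped ER proteins from the Golgi, was at 32.6, 1.82 and 0.23 RPKM from 1919, 105 and 14 reads. It was 17.9-fold (14.7 to 22.03) and 141-fold (83.6 to 258) higher in the endoderm. Its paralogs Kdelr1 (80.5, 51.5 and 34.7 RPKM) and Kdelr2 (70.3, 55.0 and 32.3 RPKM) were present in every layer, and were called against the epiblast at 2.32-fold and 2.18-fold. Among the cargo adaptors of COPII vesicles, Sec24d was at 15.8, 1.46 and 1.76 RPKM, 10.9-fold and 9.01-fold higher in the endoderm. Sec24a was at 11.5, 3.997 and 3.58 RPKM and was called in both pairs, and Sec24b (25.9, 28.2 and 21.4 RPKM) and Sec24c (53.0, 37.1 and 34.998 RPKM) were not called.

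A similar pair stood in the signal peptidase. Of its catalytic subunits, Sec11c was at 18.2, 5.18 and 4.35 RPKM, 3.51-fold and 4.19-fold higher in the endoderm, and Sec11a was at 91.5, 70.3 and 67.8 RPKM and was not called. Sec11c and Tram2 (2.59-fold and 3.46-fold) had the largest folds of 23 further targeting and translocation genes, of which 3 were called higher in the endoderm than in the mesoderm and 4 than in the epiblast. These shares are near those of all genes, 14.4% and 15.7%. The median log2 ratio of that list was 0.18 and 0.37. In N-glycosylation, 1 and 6 of 24 genes were called higher in the endoderm, below the 14.4% of all genes against the mesoderm and above the 15.7% against the epiblast. The median log2 ratios were 0.39 and 0.59. Alg6 was called in both pairs at 2.46-fold and 2.58-fold, and Alg8 (26.3, 18.1 and 8.62 RPKM) and Alg5 had the largest folds against the epiblast, at 3.05 and 2.80. Alg8 was also called higher in the mesoderm than in the epiblast, at 2.10-fold.

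In ER-associated degradation, 2 and 4 of 16 further genes were called higher in the endoderm, near the 14.4% of all genes against the mesoderm and above the 15.7% against the epiblast. The median log2 ratios were 0.48 and 0.67. Edem3 (23.0, 10.2 and 7.39 RPKM) and Edem2 (21.5, 9.73 and 8.97 RPKM) were called in both pairs, so that all 3 Edem genes were. Derl3 went the other way between the remaining layers, at 3.92, 1.34 and 6.05 RPKM, and was called higher in the epiblast than in the mesoderm.

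**Figure D3:**
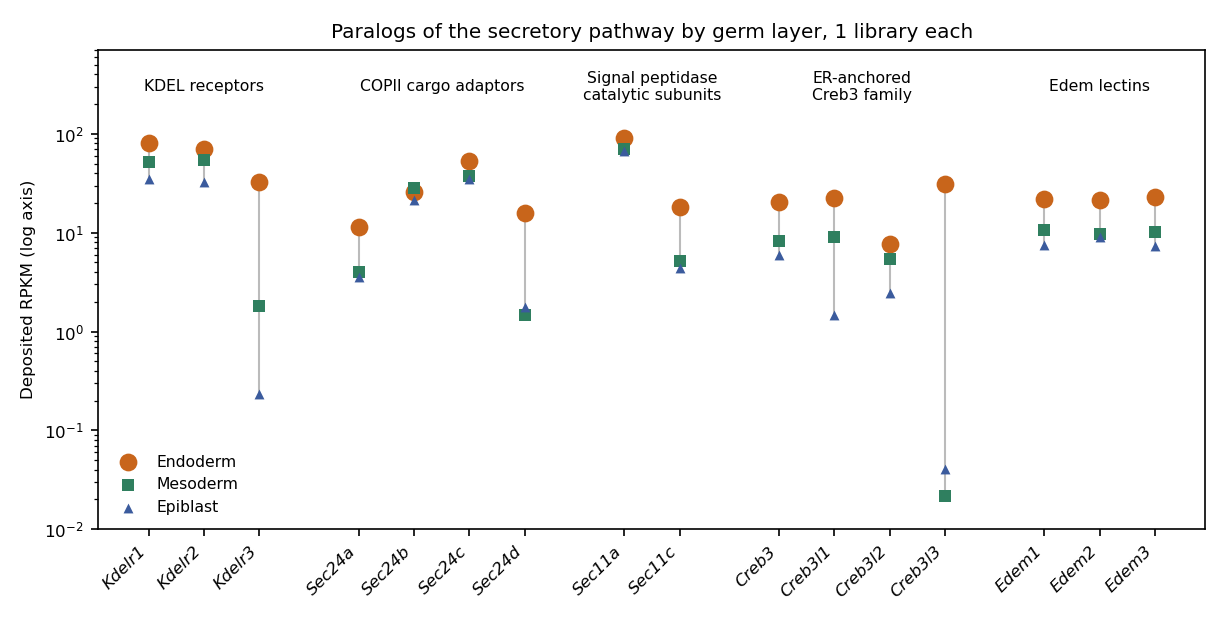
Deposited RPKM (log axis) of paralogs in 5 families by germ layer, 1 library each (circles endoderm, squares mesoderm, triangles epiblast). Kdelr3, Sec24d, Sec11c and Creb3l3 lie far above the other layers in the endoderm, and Kdelr1, Kdelr2, Sec24b, Sec24c and Sec11a differ by 2.32-fold or less across the 3 layers.

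Among 17 further sensors and targets of the unfolded protein response, 5 were called higher in the endoderm than in the mesoderm (14.4% of all genes), 4 than in the epiblast (15.7% of all genes) and 0 lower, with median log2 ratios of 0.62 and 0.42. Of the 4 ER-anchored relatives of Creb3l2 with a Creb3 symbol among them, 3 were called higher in the endoderm in both pairs. The remaining relative, Creb3l4, was highest in the epiblast, at 1.19, 1.12 and 3.48 RPKM, and did not pass the RPKM criterion. Creb3l3, a factor of hepatocytes and intestine, was at 31.2, 0.021 and 0.041 RPKM from 2971, 2 and 4 reads, with ratios of 1457 (403 to 12035) and 761 (297 to 2797). Creb3l1, known from bone and other secretory cells, was at 22.6, 9.05 and 1.47 RPKM, 2.50-fold and 15.4-fold higher in the endoderm and 6.17-fold higher in the mesoderm than in the epiblast. Creb3 was at 20.2, 8.23 and 5.95 RPKM and was called in both pairs. Wfs1, the gene of Wolfram syndrome, was 2.54-fold the mesoderm, and Eif2ak3 (Perk) was at 9.77, 4.81 and 5.10 RPKM, 2.03-fold the mesoderm.

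Of 6 genes of that list known as targets of Atf4 or Chop, none was called in any pair. Chac1, Trib3 and Atf3 could not be called, because they were below the RPKM criterion in every library. Chac1 had 20, 56 and 73 reads and was at 0.30, 0.87 and 1.08 RPKM. Its endoderm level was 0.28-fold (0.16 to 0.47) the epiblast. Trib3 was at 1.32, 0.86 and 1.39 RPKM. Ppp1r15a (GADD34) was at 7.32, 11.7 and 7.42 RPKM and Asns at 48.0, 65.7 and 36.0 RPKM, both highest in the mesoderm. Sesn2 was at 11.7, 6.89 and 11.8 RPKM. Atf3 was at 1.38, 0.69 and 0.33 RPKM, with an endoderm level 4.17-fold (2.74 to 6.56) the epiblast. These 6 genes and the paralogs above were named after their values were seen.

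Chaperones outside the ER differed in direction. The 20 cytosolic chaperones, among them Hspa8, Hsp90ab1 and the subunits of the chaperonin, held 2.48% of the reads in the endoderm, 3.07% in the mesoderm and 3.21% in the epiblast. RPKM was higher in the endoderm than in the mesoderm for 2 of the 20 and than in the epiblast for 5 of the 20, and the median log2 ratios were -0.32 and -0.33. Hspa8, the constitutive cytosolic Hsp70, was at 3583, 4158 and 4398 RPKM, opposite in order to its ER counterpart Hspa5. Hsp90ab1 was at 2255, 3037 and 3210 RPKM, opposite in order to Hsp90b1. None of the 20 met the criteria in any pair, and under all 4 other scalings the median stayed below 0 in both endoderm comparisons. The 8 mitochondrial chaperones had medians of -0.06 and -0.13, and none met the criteria. The first of these turned to 0.05 with the median of ratios and with TMM.

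**Figure D4:**
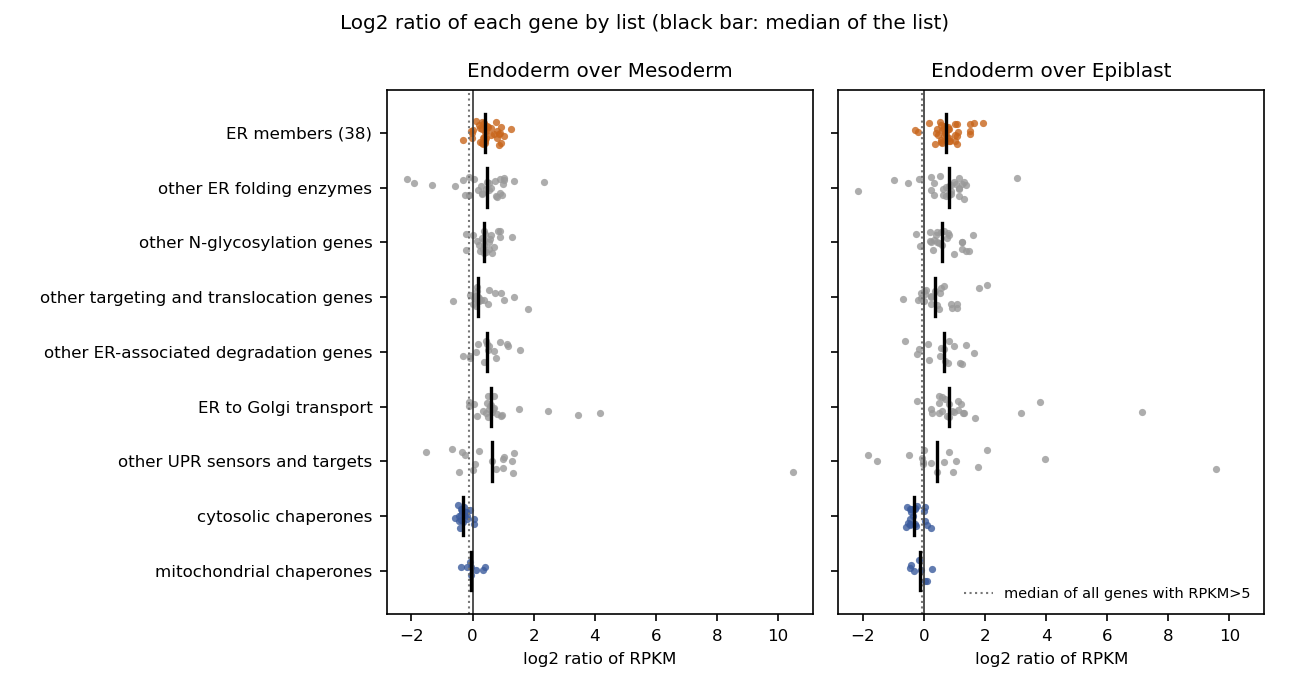
Log2 ratio of RPKM of each gene for endoderm over mesoderm and endoderm over epiblast, by list, with the list's median as a black bar and the median of all genes above RPKM 5 as a dotted line. The medians of the ER lists lie above 0, from 0.18 to 0.62 and from 0.37 to 0.83, and those of the cytosolic chaperones lie at -0.32 and -0.33.

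Secreted products of the visceral endoderm were also highest in the endoderm, and they were listed because they are known from that tissue. The full order endoderm, mesoderm, epiblast held for 9 of 15, where it held for 33 of the 38 genes. Of 16 secreted and apical proteins listed 15 were matched. All 15 were called higher in the endoderm in both pairs, where 14.4% and 15.7% of all genes were. Together they held 2.12% of the reads in the endoderm, 0.027% in the mesoderm and 0.013% in the epiblast. Apoc2 was at 1684 RPKM in the endoderm and had 8 and 4 reads in the mesoderm and epiblast. Its ratios were 5735 (2910 to 13284) and 11991 (4683 to 44010). They were the largest among the 14 and 13 listed genes with reads in both libraries of the pair. Apoa4 followed against the mesoderm, at 440 and 0.15 RPKM, and Ttr against the epiblast, at 1013 and 0.15 RPKM. The partner of P4hb in lipid loading, Mttp, was at 190, 2.71 and 1.66 RPKM, 69.9-fold and 114-fold higher in the endoderm. Its partner in collagen hydroxylation, P4ha1, was at 54.8, 24.9 and 11.7 RPKM and was called in all 3 pairs, and P4ha2 was at 2.34, 7.45 and 4.37 RPKM and was called higher in the mesoderm than in the endoderm. The part of the visceral endoderm share in the levels of the 38 genes was not tested.

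Markers of other tissues gave mixed levels beside these results. For parietal endoderm, which lines Reichert's membrane and secretes its matrix, 5 of 7 markers were highest in the endoderm and the summed RPKM was 300, 230 and 109. Srgn (15.1, 0.52 and 0.025 RPKM, the last from 1 read) and Plat (13.1, 5.95 and 1.14 RPKM) were called higher in the endoderm in both pairs, and Pth1r (38.8, 23.5 and 2.49 RPKM), Sparc and Lamb1 against the epiblast. Thbd was at 0.15, 1.61 and 0.11 RPKM, and Snai1 was highest in the mesoderm, at 5.27, 67.3 and 24.9 RPKM. For trophoblast and extra-embryonic ectoderm, 2 of 6 matched markers were highest in the endoderm (summed RPKM 55.3, 35.5 and 54.2). These were Esx1, at 7.11, 0.061 and 0.13 RPKM, and Plac1, at 19.9, 6.25 and 0.57 RPKM, and both were called higher in the endoderm in both pairs. The remaining markers were highest in the epiblast, where Cdx2 made up most of the sum. Cdx2 was at 18.4, 20.9 and 37.1 RPKM and Eomes at 9.51, 7.01 and 14.5 RPKM. Ascl2 was at 0.27, 1.12 and 1.63 RPKM and Elf5 at 0.11, 0.13 and 0.33 RPKM. For decidua, 1 of 4 matched markers was highest in the endoderm (25.8, 46.5 and 4.23), and for primitive erythroid cells 1 of 4 (3.39, 4.44 and 0.99), with Hba-a1 and Hbb-bh1 at 0 reads in the endoderm. Genes that respond to tissue dissociation were at 4823, 4218 and 3427 reads over 12 genes. Zfp36 and Junb were called higher in the endoderm in both pairs, at 4.26-fold and 2.21-fold the mesoderm and 6.37-fold and 4.29-fold the epiblast. Dusp1 was called lower than in the mesoderm and Jun was called higher in the mesoderm than in the epiblast. Their part in the results was not tested.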

How the data were processed

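The authors deposited 1 table per germ layer with the read count of each gene (uniquely mapped reads, not normalized), its RPKM, its length and the percent of the length covered by reads. The deposited RPKM was recomputed from reads, length and library total to within a relative difference of 2.03e-07. The submitters' processing notes name TopHat, mm10 and mm9, but the aligner, annotation and counting program of the gene table, and whether strand was used, are not given in the sources used here. Exons of 14 members overlap those of another gene, and their reads could be shared.

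Differential expression followed the study's criteria (RPKM above 5 in at least 1 library, Fold Change above 2, FDR below 0.001). Counts were tested with the two-sided exact Audic-Claverie test, and the FDR is the Benjamini-Hochberg adjusted value over all genes with a read in either library. It compares 2 libraries and not 2 conditions, so no p-values are given. Folds carry exact conditional binomial 95% intervals. A gene that is not listed was taken as 0 reads, which allows up to 3 reads. With 1 library per layer the quasi-likelihood test of edgeR could not be fitted. Members and lists were chosen with earlier results of these data known. All members were named, and from each other list the called genes with the largest and second largest fold in each direction and pair. A gene named by this rule is not reported here. Of 195 listed genes 192 were matched, 13 by another symbol. Coordinates of genes are from GENCODE M21 on GRCm38. Alternatives were 4 other scalings (edgeR's TMM, the median of ratios, and equal RPKM totals or upper quartiles), other RPKM and fold criteria, a pseudocount, and the exact test of edgeR with the biological coefficient of variation assumed. The calls were tested on simulated data, but no outcome is reported here, so this adds no check of the calls. Protein sequences were not analysed here. Software comprised edgeR 4.0.16 in R 4.3.3, and SciPy 1.17.1, numpy 2.4.6, pandas 2.3.3 and matplotlib 3.10.9 in Python 3.11.15.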

Additional observations from a re-analysis of the deposited data

How the results depend on the processing

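With 1 library per layer no call has a replicate check, and counting intervals understate the error. Members called higher in the endoderm than in the mesoderm were 2 under the study's criteria, 5 with the median of ratios and with TMM (Creld2, Dnajb11 and Rpn1 added), 1 with the same upper quartile (Xbp1), 13 with Fold Change above 1.5, 0 with Fold Change above 4 and 1 with a pseudocount of 1. Against the epiblast they were 12, and 5 with the same upper quartile (Creb3l2, Dnajc3, Edem1, Herpud1 and Xbp1), 27 above 1.5-fold and 0 above 4-fold. In these last 3 settings 13.8%, 24.2% and 7.19% of all genes were called higher in the endoderm than in the epiblast. Against the mesoderm the shares were 13.4%, 21.8% and 7.45%. The members' share was above these at 1.5-fold and below them with the same upper quartile and at 4-fold. Between mesoderm and epiblast the 1 call became 0 with RPKM above 10, 0 above 4-fold, 0 with a pseudocount of 1 and 6 above 1.5-fold. Of all genes, 4.54%, 2.12%, 4.64% and 10.1% were called higher in the mesoderm in these settings. In the exact test of edgeR with a coefficient of 0.2 assumed there were 0, 2 (Creb3l2 and Xbp1) and 0 calls in the 3 pairs. Of all genes, 9.27%, 9.69% and 2.78% were called higher in the endoderm or, in the last pair, the mesoderm. At 0.4 there were 0, 0 and 0 calls of members. The median log2 ratio of the members moved from 0.41 to 0.52 against the mesoderm with the median of ratios and with TMM. Against the epiblast it moved from 0.74 to 0.84 with these and to 0.60 with the same upper quartile. The same scalings moved the median of all genes against the epiblast from -0.08 to 0.04 and to -0.23, and against the mesoderm from -0.10 to 0.02 with the former. Measured from the median of all genes, the members stood at 0.50 to 0.51 against the mesoderm and 0.80 to 0.83 against the epiblast. This distance was nearly fixed in advance, because a scaling moves every gene of a pair by the same log2 amount. It can change only through which genes pass the RPKM criterion, so it is no check of the result. Signs turned only in uncalled values. Against the mesoderm these were Sdf2l1 (0.027 with the same RPKM total, 0.11 with the median of ratios, 0.10 with TMM), Ddit3 (0.028, 0.11 and 0.11), Dnajb9 (0.075 and 0.074 with the latter scalings) and Atf6 (-0.039 with the same upper quartile), and between mesoderm and epiblast Ssr4 (-0.046 with the same upper quartile). The highest layer was the endoderm for 33 to 36 of the 38 genes over the scalings. No paired analysis was possible because each germ layer has 1 library. The planned search of the proteins for ER retention signals was not run.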
